A study of Mus musculus with 8 samples.

Results

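The interferon-stimulated antiviral genes are those that type I interferon switches on in most cells and whose products recognise viral nucleic acid, block viral replication or tune the signal itself. They were taken by symbol from a list of 43 mouse gene symbols, which was chosen with earlier results of these data known. A gene was represented by the probe set that is annotated to its symbol alone and is brightest on average over the 8 arrays, leaving 40 measured genes of 18193 measured in all. Isg15, Oas1g and Ifi44 were not measured, and the probe set listed for Isg15 also names a second gene. The 40 genes have 68 such probe sets, and 18 of the genes have more than 1. The genes cover nucleic acid sensors, the Oas, Ifit and Mx families, other effectors, the ISG15 system, the PARP group with its signalling partners, the schlafens and 5 further genes.

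RNA was taken from mouse bone-marrow-derived macrophages, which are marrow cells grown into macrophages with macrophage colony-stimulating factor (M-CSF) and purified by adherence. The 4 groups were Tpl2-deficient cells given LPS, the lipopolysaccharide of Escherichia coli 0111:B4, at 1 μg/mL, unstimulated Tpl2-deficient cells, wild-type cells with the same LPS and unstimulated wild-type cells, with 2 arrays in each. Tpl2, encoded by Map3k8, is a kinase that links toll-like receptors to MEK and ERK. The sources give neither the time in LPS, the strain, the sex nor the place of the deletion within Map3k8, and both arrays of a group are named as biological replicates with no word on whether they came from separate mice, so a p-value measures only the spread between these samples. All levels below are log2 hybridisation intensities, and all changes are log2 differences with their standard error.

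LPS is recognised by Tlr4, and one branch of that signal runs through the adaptor Ticam1 and the kinase Tbk1 to Irf3, which switches on Ifnb1, the gene of interferon beta. Secreted interferon beta binds the receptor chains Ifnar1 and Ifnar2 on the same and neighbouring cells, and the kinases Jak1 and Tyk2 then activate a complex with Stat2 and Irf9 in it that binds the interferon-stimulated response element (ISRE). In macrophages this second wave accounts for much of the antiviral response to LPS, and some of the same genes can also be switched on by Irf3 directly.

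The promoters of the genes are shown first because the ISRE is the sequence through which that complex acts. RefSeq (GRCm38.p6) windows from 250 bases before to 50 bases after the annotated start were given for 32 of the 43 symbols, 29 of them measured. They were searched on both strands for the ISRE core (GAAA, 2 bases of any kind and GAAA again), for the gamma-activated site GAS (TTCNNNGAA) and for the AP-1 site TGANTCA, which is bound by Fos and Jun proteins downstream of ERK. The ISRE core was in 13 of the 32 (40.6%), while 3.99% of all 27025 genes with such windows hold it. GAS was in 6 (18.8%, against 9.55% of all genes) and AP-1 in 6 as well (18.8%, against 8.97%). A match is a description of letters in the window and not a binding site. The stretches below lie before the start of 3 genes with an ISRE core (Ifit1, Bst2 and Oas3) and of 4 others. These 4, Rsad2, Cmpk2, Oasl1 and Slfn4, passed the test of a differing LPS response between the genotypes. For Rsad2 the levels with LPS were at the top of the measured range. Each stretch is written 5′ to 3′ on the gene's strand, with ISRE cores and AP-1 sites in capitals.
Ifit1: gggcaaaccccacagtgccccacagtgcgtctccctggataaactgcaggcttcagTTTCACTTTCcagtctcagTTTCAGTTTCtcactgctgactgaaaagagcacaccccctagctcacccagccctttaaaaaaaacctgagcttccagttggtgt
Bst2: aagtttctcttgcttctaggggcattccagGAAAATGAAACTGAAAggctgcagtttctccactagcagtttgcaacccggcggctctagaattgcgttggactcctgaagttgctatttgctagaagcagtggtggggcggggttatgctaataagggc
Oas3: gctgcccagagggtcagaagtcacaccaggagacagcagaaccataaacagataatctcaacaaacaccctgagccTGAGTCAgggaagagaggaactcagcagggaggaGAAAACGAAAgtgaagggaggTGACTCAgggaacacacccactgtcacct
Rsad2: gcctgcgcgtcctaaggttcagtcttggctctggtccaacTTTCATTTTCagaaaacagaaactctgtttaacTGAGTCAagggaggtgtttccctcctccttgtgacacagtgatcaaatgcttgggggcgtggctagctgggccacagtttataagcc
Cmpk2: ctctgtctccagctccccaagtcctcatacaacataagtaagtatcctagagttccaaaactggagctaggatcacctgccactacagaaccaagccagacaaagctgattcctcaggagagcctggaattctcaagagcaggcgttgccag
Oasl1: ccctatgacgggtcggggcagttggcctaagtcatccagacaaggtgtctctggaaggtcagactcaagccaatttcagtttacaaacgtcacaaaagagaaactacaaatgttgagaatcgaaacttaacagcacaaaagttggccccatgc
Slfn4: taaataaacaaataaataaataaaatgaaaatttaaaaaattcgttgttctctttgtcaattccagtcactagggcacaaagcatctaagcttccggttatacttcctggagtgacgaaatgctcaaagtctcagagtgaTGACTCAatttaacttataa
In GRCm38.p6 the Ifit1 stretch lies at chr19:34640729-34640888 (+ strand), the Bst2 stretch at chr8:71537473-71537632 (- strand) and the Oas3 stretch at chr5:120777685-120777844 (- strand). The Rsad2 stretch lies at chr12:26456453-26456612 (- strand) and the Cmpk2 stretch at chr12:26468965-26469116 (+ strand). The Oasl1 stretch lies at chr5:114922990-114923142 (+ strand) and the Slfn4 stretch at chr11:83175012-83175171 (+ strand). Ifit1 has ISRE cores that begin 104 and 85 bases before the start, and Bst2 has a pair that begin 130 and 124 bases before it and share bases. In Oas3 the core begins 75 bases before the start and lies between AP-1 sites at 109 and 54 bases. Rsad2 has a core at 120 and an AP-1 site at 87 bases before the start. Slfn4 has an AP-1 site at 34 bases and no ISRE core in its window, and the windows of Cmpk2 and Oasl1 hold none of the 3 motifs, which says only that these letters are not in these windows. The LPS rise had a median of 2.97 in Tpl2-deficient cells and 3.34 in wild-type cells for the 11 measured genes with it, and 3.31 in Tpl2-deficient and 3.28 in wild-type cells for the 18 without it.

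Array medians ran from 6.48 to 6.53 and array maxima from 15.22 to 15.33. The 2 arrays of Tpl2-deficient cells with LPS agreed least, with a correlation of 0.9938 over all probe sets against 0.9973 in each other group. Their median SD over all probe sets was 0.12, against 0.07 in each other group. Map3k8 gave 9.83 and 10.09 with LPS and 8.32 and 8.23 without in Tpl2-deficient macrophages, against 11.01 and 10.91 with LPS and 9.27 and 9.28 without in wild-type macrophages. The signal was lower in the arrays labelled deficient (adjusted p = 0.000125 with LPS and 0.00237 without, limma with Benjamini-Hochberg adjustment), and whether its probe set lies in the deleted part is not known. All 8 macrophage markers checked, Csf1r and Adgre1 among them, lay above the array medians in every group (group means 8.54 to 15.14), and B cell, T and NK cell and conventional dendritic cell markers mostly lay under them. The 3′ to 5′ log2 ratio of Actb, a sign of RNA quality, was 0.65 in Tpl2-deficient cells with LPS, 0.89 in Tpl2-deficient cells without, 0.51 in wild-type cells with LPS and 0.74 in wild-type cells without, and its part in the results was not tested.

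The first question was how the antiviral genes respond to LPS in each genotype. In Tpl2-deficient macrophages all 40 measured genes rose, by a median of 3.24, where 16.0% of all 18193 genes rose. In wild-type macrophages all 40 rose too, by a median of 3.38, where 21.3% of all genes rose. All genes together had a median change of 0.00 in Tpl2-deficient and 0.04 in wild-type cells. The rises spanned 0.87 to 6.66 in Tpl2-deficient cells and 0.85 to 7.07 in wild-type cells, and 39 of the 40 were at least 2-fold in each. Both LPS arrays stood above both unstimulated arrays for all 40 genes in each genotype, which 31.2% of all genes did in Tpl2-deficient and 41.1% in wild-type cells. The test was limma over all 8 arrays with Benjamini-Hochberg adjustment over all genes, at an adjusted p under 0.05, and the highest adjusted p among the 40 came to 4.42e-05 in Tpl2-deficient cells and 2.82e-05 in wild-type cells. With arrays centred on spike-in controls the median of all genes became -0.20 in Tpl2-deficient and -0.09 in wild-type cells, the members' medians became 3.04 in Tpl2-deficient and 3.24 in wild-type cells, and all 40 still passed. Of 5 markers of plasmacytoid dendritic cells, which make much interferon, Siglech, Tcf4 and Ccr9 rose in each genotype, and Klk1 and Ly6d did not pass. The summed level of the 5 was 12.41 to 12.63 in Tpl2-deficient cells with LPS and 11.29 to 11.43 without. It was 11.92 to 11.93 in wild-type cells with LPS and 11.26 to 11.28 without. Most of this sum was Tcf4, with group means of 12.27 in Tpl2-deficient cells with LPS and 10.77 without, and 11.51 and 10.71 in wild-type cells. With LPS, Tcf4 alone of the 5 differed between the genotypes, higher in Tpl2-deficient cells (0.76, adjusted p = 0.000587, limma). Siglech, the defining marker, had group means of 7.10 in Tpl2-deficient cells with LPS and 6.64 without, against 6.99 in wild-type cells with LPS and 6.71 without, and the part of such cells in the rises was not tested. In bulk RNA fewer cells of a type and less RNA per cell cannot be told apart.

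**Figure D1:**
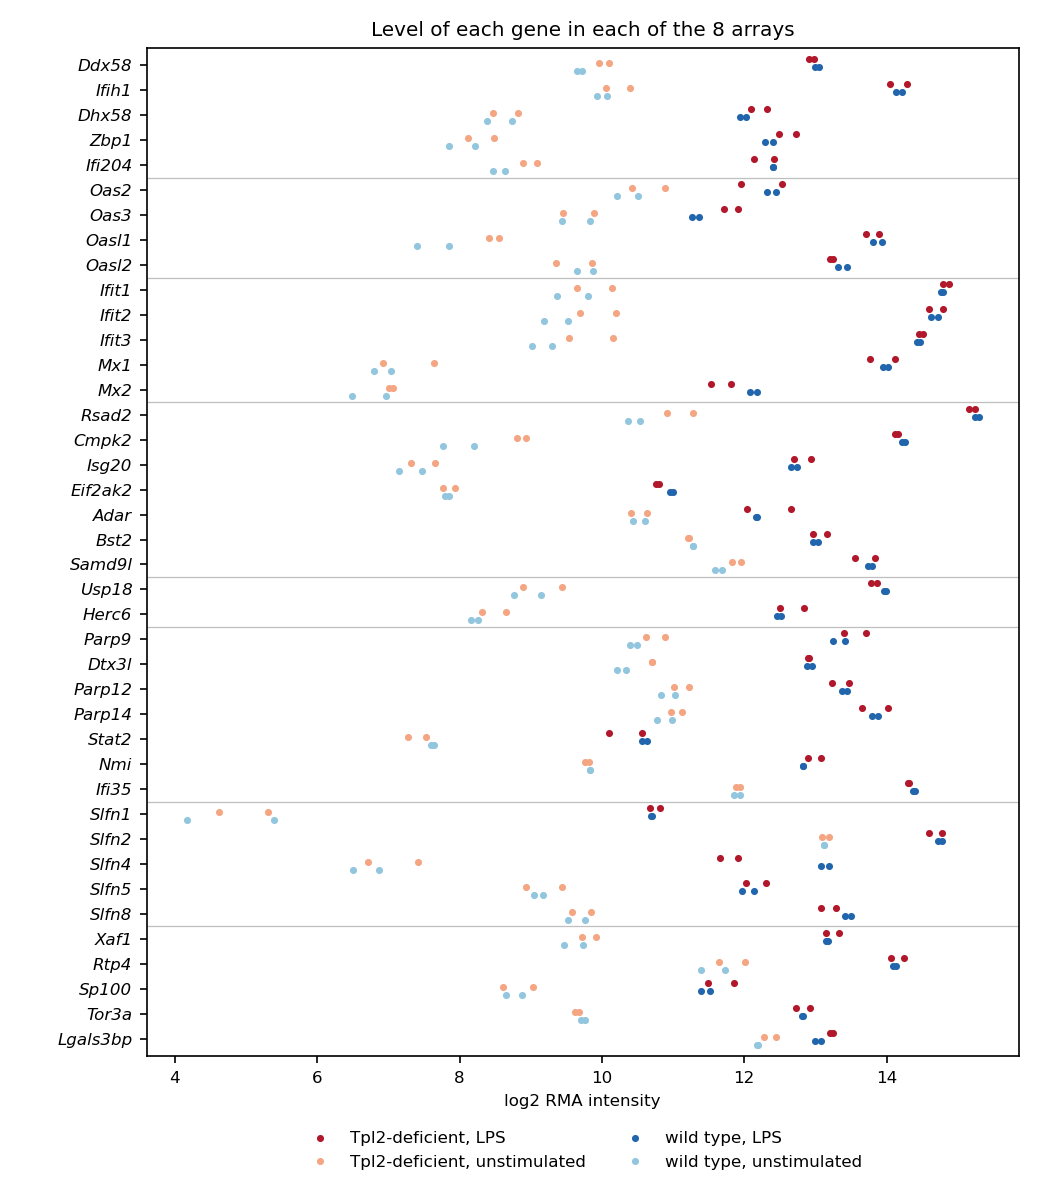
Level of each of the 40 antiviral genes (log2 intensity) on the 8 arrays, 1 row per gene within its role group and 1 point per array, coloured by genotype and treatment. In every row the 4 LPS points stand to the right of the 4 unstimulated points.

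All 5 nucleic acid sensors rose in both genotypes. Zbp1, a sensor of Z-form nucleic acid that can trigger necroptosis, gave 12.73 and 12.49 with LPS and 8.49 and 8.12 without in Tpl2-deficient macrophages, against 12.41 and 12.29 with LPS and 8.21 and 7.85 without in wild-type macrophages. Ifih1, which encodes the long double-stranded RNA sensor MDA5, gave 14.05 and 14.29 with LPS and 10.40 and 10.06 without in Tpl2-deficient macrophages, against 14.13 and 14.22 with LPS and 10.07 and 9.93 without in wild-type macrophages. Every LPS array of both genes stood far above every unstimulated array, and the rises were 4.31 ± 0.16 in Tpl2-deficient and 4.32 ± 0.16 in wild-type cells for Zbp1 and 3.94 ± 0.13 in Tpl2-deficient and 4.18 ± 0.13 in wild-type cells for Ifih1. Dhx58, which encodes the regulatory RNA helicase LGP2, gave 12.10 and 12.32 with LPS and 8.83 and 8.47 without in Tpl2-deficient macrophages, against 11.95 and 12.03 with LPS and 8.74 and 8.38 without in wild-type macrophages. Ifi204, a member of the family of DNA-binding sensors to which human IFI16 belongs, gave 12.42 and 12.14 with LPS and 9.09 and 8.89 without in Tpl2-deficient macrophages, against 12.40 and 12.40 with LPS and 8.47 and 8.63 without in wild-type macrophages. Unstimulated Tpl2-deficient arrays were the higher ones for Ifi204, and LPS arrays of the 2 genotypes overlapped. Ddx58, which encodes the RNA sensor RIG-I, rose by 2.91 ± 0.10 in Tpl2-deficient and 3.34 ± 0.10 in wild-type cells.

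All 4 measured members of the Oas family rose, over a wide span. Oasl1, whose product represses translation of Irf7 in mouse cells, gave 13.71 and 13.89 with LPS and 8.56 and 8.41 without in Tpl2-deficient macrophages, against 13.81 and 13.94 with LPS and 7.85 and 7.40 without in wild-type macrophages. This was a rise of 39.8-fold in Tpl2-deficient and 76.1-fold in wild-type cells, at least 3 log2 units beyond that of Oas2 or Oas3 in each genotype. Oasl2, an Oas-like protein that retains enzyme activity in the mouse, gave 13.21 and 13.24 with LPS and 9.86 and 9.36 without in Tpl2-deficient macrophages, against 13.32 and 13.44 with LPS and 9.87 and 9.65 without in wild-type macrophages, and its arrays overlapped between genotypes without LPS and did not with LPS. Oas3, which makes the oligoadenylates that activate RNase L, gave 11.72 and 11.92 with LPS and 9.89 and 9.45 without in Tpl2-deficient macrophages, against 11.26 and 11.36 with LPS and 9.83 and 9.45 without in wild-type macrophages. Oas2, an enzyme of the same activity, gave 11.96 and 12.53 with LPS and 10.89 and 10.43 without in Tpl2-deficient macrophages, against 12.32 and 12.44 with LPS and 10.51 and 10.21 without in wild-type macrophages. Oas2 and Oas3 started well above the array median and rose least in the family, by 1.58 ± 0.20 in Tpl2-deficient and 2.03 ± 0.20 in wild-type cells for Oas2 and by 2.15 ± 0.16 in Tpl2-deficient and 1.67 ± 0.16 in wild-type cells for Oas3.

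The Ifit and Mx families had the highest median rise of the 8 role groups, 4.75 in Tpl2-deficient and 5.31 in wild-type cells, and all 5 genes rose. Mx1, a dynamin-like GTPase that acts on influenza viruses in the nucleus and whose gene RefSeq annotates as a transcribed pseudogene in its reference strain, gave 13.77 and 14.13 with LPS and 7.65 and 6.93 without in Tpl2-deficient macrophages, against 13.95 and 14.02 with LPS and 7.03 and 6.80 without in wild-type macrophages. That rise of 101-fold in Tpl2-deficient and 134-fold in wild-type cells exceeded the measured rises of the other 39 genes, of which those of Slfn1 and Rsad2 are lower bounds. Mx2, a related GTPase with the same annotation, gave 11.53 and 11.81 with LPS and 7.07 and 7.01 without in Tpl2-deficient macrophages, against 12.08 and 12.18 with LPS and 6.96 and 6.50 without in wild-type macrophages. Its LPS arrays were lower in both Tpl2-deficient samples than in both wild-type samples. Ifit1, which binds viral RNA that lacks the cap methylation of host RNA, gave 14.80 and 14.88 with LPS and 10.15 and 9.66 without in Tpl2-deficient macrophages, against 14.80 and 14.76 with LPS and 9.81 and 9.38 without in wild-type macrophages. Ifit2, a related RNA-binding protein, gave 14.60 and 14.79 with LPS and 10.19 and 9.69 without in Tpl2-deficient macrophages, against 14.62 and 14.72 with LPS and 9.52 and 9.19 without in wild-type macrophages. For Ifit2 both unstimulated Tpl2-deficient arrays were above both unstimulated wild-type arrays, and its LPS arrays overlapped. The rises were 4.94 ± 0.17 in Tpl2-deficient and 5.19 ± 0.17 in wild-type cells for Ifit1 and 4.75 ± 0.17 in Tpl2-deficient and 5.31 ± 0.17 in wild-type cells for Ifit2. Ifit3 rose by 4.64 ± 0.17 in Tpl2-deficient and 5.29 ± 0.17 in wild-type cells.

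All 7 other effectors rose. Isg20, an exonuclease that degrades RNA, gave 12.93 and 12.70 with LPS and 7.66 and 7.31 without in Tpl2-deficient macrophages, against 12.66 and 12.75 with LPS and 7.48 and 7.14 without in wild-type macrophages. Cmpk2, a mitochondrial nucleotide kinase, gave 14.16 and 14.12 with LPS and 8.93 and 8.80 without in Tpl2-deficient macrophages, against 14.26 and 14.21 with LPS and 8.20 and 7.77 without in wild-type macrophages. Rsad2 encodes viperin, an enzyme that makes a chain-terminating nucleotide, and gave 15.16 and 15.25 with LPS and 11.28 and 10.92 without in Tpl2-deficient macrophages, against 15.30 and 15.24 with LPS and 10.53 and 10.37 without in wild-type macrophages. On 2 of its LPS arrays, Tpl2-deficient replicate 2 and wild-type replicate 1, it was the brightest probe set of all, so its rises are lower bounds. Its other 2 probe sets rose by 5.32 and 6.15 in Tpl2-deficient and 6.11 and 6.71 in wild-type cells, against at least 4.10 in Tpl2-deficient and 4.82 in wild-type cells for the one used. The rises of Isg20 were 5.33 ± 0.15 in Tpl2-deficient and 5.39 ± 0.15 in wild-type cells, and those of Cmpk2 were 5.27 ± 0.13 in Tpl2-deficient and 6.25 ± 0.13 in wild-type cells. The remaining effectors rose less. Eif2ak2, which encodes the RNA-activated kinase PKR that stops translation, rose by 2.93 ± 0.10 in Tpl2-deficient and 3.16 ± 0.10 in wild-type cells, and Adar, which edits adenosine in double-stranded RNA, by 1.83 ± 0.17 in Tpl2-deficient and 1.65 ± 0.17 in wild-type cells. Bst2, which encodes tetherin and holds budding virions on the cell surface, started high at 11.21 and 11.22 in unstimulated Tpl2-deficient and 11.28 and 11.28 in unstimulated wild-type cells, and rose by 1.84 ± 0.10 in Tpl2-deficient and 1.73 ± 0.10 in wild-type cells. Samd9l, a restriction factor for poxviruses, rose by 1.80 ± 0.12 in Tpl2-deficient and 2.13 ± 0.12 in wild-type cells.

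Both measured genes of the ISG15 system rose. Usp18, a protease that removes ISG15 from proteins and also damps signalling at Ifnar2, gave 13.78 and 13.87 with LPS and 9.44 and 8.89 without in Tpl2-deficient macrophages, against 13.96 and 13.99 with LPS and 9.14 and 8.77 without in wild-type macrophages. Herc6, the ligase that attaches ISG15 in mouse cells, gave 12.50 and 12.84 with LPS and 8.65 and 8.32 without in Tpl2-deficient macrophages, against 12.46 and 12.52 with LPS and 8.27 and 8.17 without in wild-type macrophages. All 4 LPS arrays of each gene stood more than 3 log2 units above its unstimulated arrays, and the rises were 4.65 ± 0.17 in Tpl2-deficient and 5.02 ± 0.17 in wild-type cells for Usp18 and 4.18 ± 0.14 in Tpl2-deficient and 4.27 ± 0.14 in wild-type cells for Herc6.

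The PARP group and its signalling partners rose within a narrow band, 2.20 to 3.20 in Tpl2-deficient and 2.47 to 2.99 in wild-type cells, with all 7 past the threshold. Nmi, which binds Ifi35, gave 13.08 and 12.90 with LPS and 9.82 and 9.77 without in Tpl2-deficient macrophages, against 12.82 and 12.83 with LPS and 9.83 and 9.84 without in wild-type macrophages. Stat2, a subunit of the ISRE-binding complex, gave 10.11 and 10.56 with LPS and 7.52 and 7.27 without in Tpl2-deficient macrophages, against 10.56 and 10.63 with LPS and 7.64 and 7.59 without in wild-type macrophages. For both genes the unstimulated Tpl2-deficient arrays were below the unstimulated wild-type arrays by a small margin. Parp9, a PARP family member that forms a ligase complex with Dtx3l, gave 13.41 and 13.71 with LPS and 10.89 and 10.62 without in Tpl2-deficient macrophages, against 13.25 and 13.42 with LPS and 10.49 and 10.40 without in wild-type macrophages. Parp14, which attaches single ADP-ribose units, gave 13.65 and 14.02 with LPS and 11.13 and 10.97 without in Tpl2-deficient macrophages, against 13.80 and 13.89 with LPS and 10.98 and 10.77 without in wild-type macrophages. The rises were 3.20 ± 0.10 in Tpl2-deficient and 2.99 ± 0.10 in wild-type cells for Nmi, 2.94 ± 0.15 in Tpl2-deficient and 2.98 ± 0.15 in wild-type cells for Stat2 and 2.81 ± 0.13 in Tpl2-deficient and 2.89 ± 0.13 in wild-type cells for Parp9. Dtx3l rose by 2.20 ± 0.10 in Tpl2-deficient and 2.64 ± 0.10 in wild-type cells, Parp12, another mono-ADP-ribose writer, by 2.23 ± 0.12 in Tpl2-deficient and 2.47 ± 0.12 in wild-type cells, and Ifi35, the binding partner of Nmi, by 2.40 ± 0.10 in Tpl2-deficient and 2.48 ± 0.10 in wild-type cells.

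All 5 schlafens rose, by amounts that differed widely among themselves. Slfn1, a short schlafen first described in thymocyte development, gave 10.68 and 10.82 with LPS and 5.31 and 4.62 without in Tpl2-deficient macrophages, against 10.70 and 10.70 with LPS and 5.39 and 4.17 without in wild-type macrophages. Its unstimulated level lay under the array medians in both genotypes, so its rise was at least 55.1-fold in Tpl2-deficient and 60.6-fold in wild-type cells. Slfn4, a schlafen of myeloid cells, gave 11.66 and 11.91 with LPS and 7.41 and 6.72 without in Tpl2-deficient macrophages, against 13.08 and 13.20 with LPS and 6.87 and 6.50 without in wild-type macrophages. It rose by 26.4-fold in Tpl2-deficient and 87.6-fold in wild-type cells, and its LPS arrays were lower in both Tpl2-deficient samples. Slfn8, one of the longer schlafens with a helicase-like end, gave 13.07 and 13.30 with LPS and 9.85 and 9.58 without in Tpl2-deficient macrophages, against 13.42 and 13.50 with LPS and 9.77 and 9.53 without in wild-type macrophages. Slfn5, also of the long form, rose by 2.97 ± 0.16 in Tpl2-deficient and 2.95 ± 0.16 in wild-type cells, and Slfn2, which mouse T cells need to stay quiescent, by 1.54 ± 0.10 in Tpl2-deficient and 1.63 ± 0.10 in wild-type cells. A second probe set of Slfn1 stayed between 4.09 and 4.59 on all 8 arrays and did not pass in Tpl2-deficient cells (0.13, adjusted p = 0.388, limma with Benjamini-Hochberg adjustment). In wild-type cells this probe set passed narrowly (0.30, adjusted p = 0.0426, limma). It gave 4.47 and 4.51 with LPS and 4.09 and 4.29 without, all under the array medians. It was the exception among the 68 probe sets in Tpl2-deficient cells, of which 67 rose (15.9% of all probe sets did). In wild-type cells all 68 passed as higher, this one included (20.7% of all probe sets did).

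All 5 further genes rose. Xaf1, a pro-apoptotic antagonist of the inhibitor XIAP, gave 13.33 and 13.15 with LPS and 9.91 and 9.72 without in Tpl2-deficient macrophages, against 13.15 and 13.18 with LPS and 9.73 and 9.47 without in wild-type macrophages. Tor3a, an interferon-responsive ATPase of the torsin family, gave 12.73 and 12.93 with LPS and 9.68 and 9.63 without in Tpl2-deficient macrophages, against 12.81 and 12.82 with LPS and 9.77 and 9.71 without in wild-type macrophages. Sp100, a scaffold of PML nuclear bodies, gave 11.49 and 11.86 with LPS and 9.03 and 8.61 without in Tpl2-deficient macrophages, against 11.39 and 11.52 with LPS and 8.87 and 8.66 without in wild-type macrophages. In these 3 genes the arrays of the 2 genotypes overlapped under LPS, and the rises were 3.42 ± 0.12 in Tpl2-deficient and 3.57 ± 0.12 in wild-type cells for Xaf1 and 2.86 ± 0.16 in Tpl2-deficient and 2.69 ± 0.16 in wild-type cells for Sp100. Rtp4, a chaperone of membrane receptors, rose by 2.32 ± 0.15 in Tpl2-deficient and 2.55 ± 0.15 in wild-type cells. Lgals3bp, a secreted glycoprotein that binds galectin, had the smallest rise of the 40, 0.87 ± 0.10 in Tpl2-deficient and 0.85 ± 0.10 in wild-type cells, from an already high unstimulated level of 12.45 and 12.28 in Tpl2-deficient and 12.18 and 12.20 in wild-type cells.

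**Figure D2:**
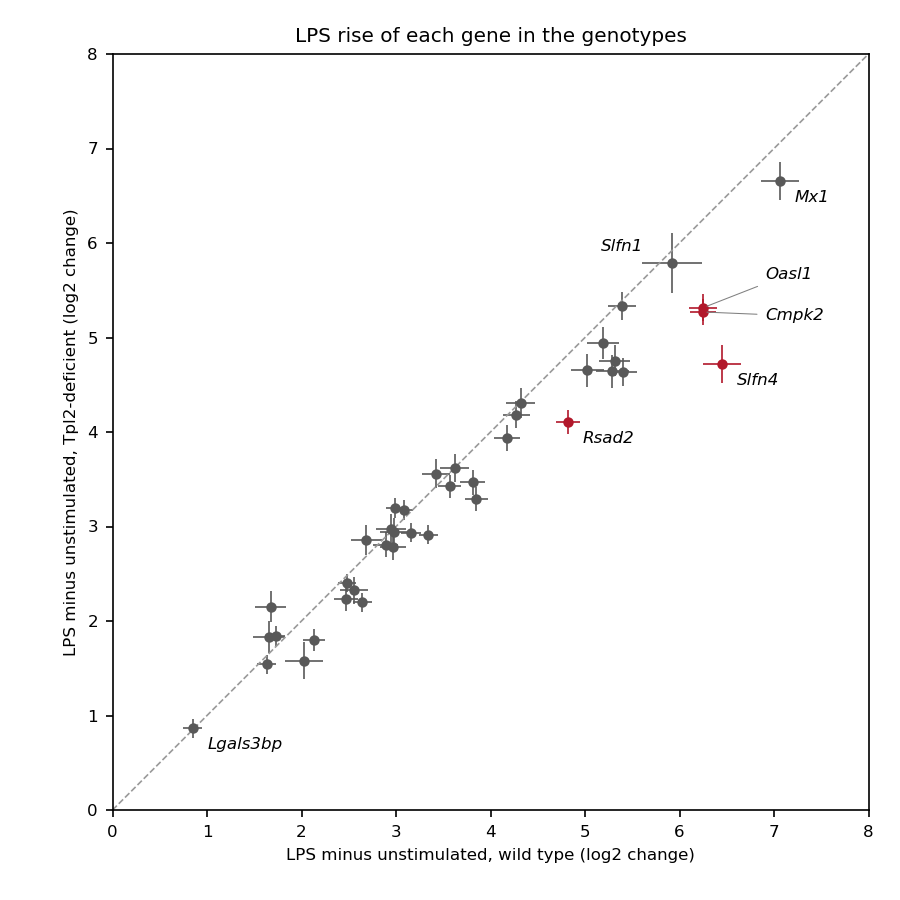
LPS rise of each of the 40 genes in Tpl2-deficient cells (vertical axis) against that in wild-type cells (horizontal axis), as log2 changes with standard errors, with the line of equal rise. Points run from Lgals3bp at 0.87 and 0.85 to Mx1 at 6.66 and 7.07. The 4 genes that passed the test of a differing response (red) lie below the line, and the rises of Rsad2 and Slfn1 are lower bounds.

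The second question was whether the genes differ between the genotypes before LPS. In unstimulated Tpl2-deficient macrophages 2 of the 40 were higher than in wild-type cells, Cmpk2 and Oasl1, where 0.154% of all genes were higher. Of the 40, 0 were lower, where 0.346% of all genes were lower (limma with Benjamini-Hochberg adjustment). Cmpk2 gave 8.93 and 8.80 in Tpl2-deficient and 8.20 and 7.77 in wild-type macrophages, a difference of 0.88 ± 0.13 (1.84-fold, adjusted p = 0.0176, limma). The second probe set of Cmpk2 gave 6.93 and 6.48 in Tpl2-deficient and 6.80 and 6.12 in wild-type macrophages and did not pass (0.24, adjusted p = 0.723, limma), nor did the mean of both probe sets (0.56, adjusted p = 0.204, limma). Oasl1 gave 8.56 and 8.41 in Tpl2-deficient and 7.85 and 7.40 in wild-type macrophages, a difference of 0.86 ± 0.15 (1.82-fold, adjusted p = 0.0312, limma). For the probe sets used of both genes every Tpl2-deficient array was above every wild-type array, and the wild-type arrays stood further apart than the Tpl2-deficient ones. Both calls also depended on single arrays. Without wild-type unstimulated replicate 2 neither passed (0.66, adjusted p = 0.14 for Cmpk2 and 0.64, adjusted p = 0.245 for Oasl1, limma), and the same held without Tpl2-deficient unstimulated replicate 1 (0.82, adjusted p = 0.162 for Cmpk2 and 0.79, adjusted p = 0.211 for Oasl1, limma). Without Tpl2-deficient unstimulated replicate 2 neither passed either (0.94, adjusted p = 0.091 for Cmpk2 and 0.93, adjusted p = 0.127 for Oasl1, limma), and Ifit3 passed in their place (0.99, adjusted p = 0.0399, limma).

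The other 38 genes did not pass before LPS. Rsad2 gave 11.28 and 10.92 in Tpl2-deficient and 10.53 and 10.37 in wild-type macrophages, a difference of 0.65 ± 0.13 (adjusted p = 0.0607, limma). Ifit3 gave 10.15 and 9.54 in Tpl2-deficient and 9.30 and 9.02 in wild-type macrophages, a difference of 0.69 ± 0.17 (adjusted p = 0.144, limma). Ifit2 differed by 0.59 ± 0.17 (adjusted p = 0.181, limma). All 3 genes had both Tpl2-deficient arrays above both wild-type arrays. Dtx3l differed by 0.43 ± 0.10, Ifi204 by 0.44 ± 0.12 and Ddx58 by 0.35 ± 0.10. The median difference over the 40 was 0.21, beside -0.00 for all genes, and 35 of the 40 were above 0, beside 49.1% of all genes. Members' arrays did not overlap between the genotypes with Tpl2-deficient cells above in 13 (23.9% of all genes) and with Tpl2-deficient cells below in 4, Bst2, Stat2, Nmi and Tor3a (29.2% of all genes). The 95% intervals of 37 of the 38 lay within a 2-fold difference. The exception was Ifit3, with an interval of 0.31 to 1.07. Members moved together between the replicates of a group, which bears on all of these counts. Replicate 1 was above replicate 2 for 38 of the 40 in unstimulated Tpl2-deficient cells (median difference 0.27) and for 35 in unstimulated wild-type cells (0.21). With LPS replicate 1 was above replicate 2 for 8 of the 40 in Tpl2-deficient cells (-0.18) and for 8 in wild-type cells (-0.06). Over all genes the share with replicate 1 above was between 50.4% and 52.5% in each group. The part of this shared movement in the genotype differences was not tested.

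**Figure D3:**
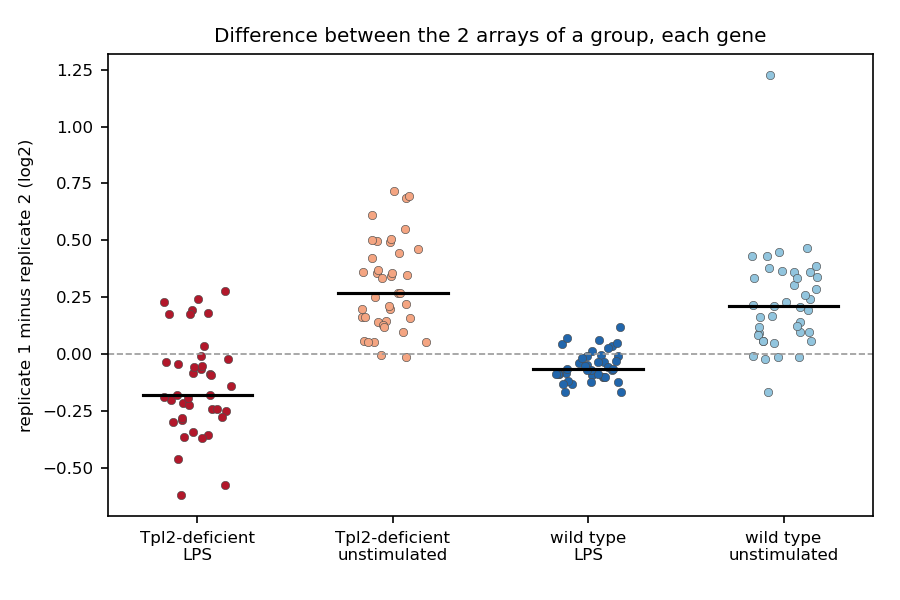
Replicate 1 minus replicate 2 (log2) for each of the 40 genes in each of the 4 groups, 1 point per gene. Most points are above 0 in the unstimulated groups (38 in Tpl2-deficient and 35 in wild-type cells) and below 0 in the LPS groups (8 above in each).

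The third question was whether the genes differ between the genotypes once LPS is present. With LPS 0 of the 40 were higher in Tpl2-deficient than in wild-type macrophages, where 8.01% of all genes were higher. The 1 lower gene was Slfn4, where 5.73% of all genes were lower (limma with Benjamini-Hochberg adjustment). Slfn4 gave 11.66 and 11.91 in Tpl2-deficient and 13.08 and 13.20 in wild-type macrophages, a difference of -1.35 ± 0.20, so that it was 2.55-fold lower in Tpl2-deficient cells (95% interval -1.79 to -0.91, adjusted p = 0.00091, limma). The Tpl2-deficient arrays were more than 1 log2 unit below the wild-type arrays. Only 1 probe set names Slfn4 alone, so the alternatives that change the probe set could not alter its values. Another probe set that also names a further gene was not used. The call held under all 15 alternatives tried, with adjusted p between 6.28e-05 and 0.0203 (limma). S100a8, 1 of 5 neutrophil markers measured, was also lower, with group means of 9.03 in Tpl2-deficient and 10.17 in wild-type cells with LPS (adjusted p = 0.000142, limma). The other 4, S100a9, Mpo, Elane and Camp, differed by -0.03 to 0.05 (adjusted p of 0.859 to 0.974, limma), and 3 of the 5 lay under the array medians in every group. The summed level of the 5 was 9.78 to 9.95 in Tpl2-deficient cells with LPS, 9.32 to 9.35 in Tpl2-deficient cells without, 10.53 to 10.69 in wild-type cells with LPS and 9.41 to 9.58 in wild-type cells without, and its part in the Slfn4 difference was not tested.

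By the probe sets used, the remaining 39 genes gave levels within narrow limits of each other in the 2 genotypes. Their differences ran from -0.46 to 0.51 with a median over all 40 of -0.01, beside 0.02 for all genes, and all 39 intervals of 95% lay within a 2-fold difference, where that of Rsad2 rests on levels at the top of the measured range. With LPS 9 of the 40, Rsad2 among them, had group means above 14 in each genotype, near the array maxima of 15.22 to 15.33. What part this had in the small differences was not tested. Of the 40, 19 were above 0 and 21 below, beside 53.8% of all genes above 0. Both Tpl2-deficient arrays were above both wild-type arrays for 6 genes (26.9% of all genes) and below for 9 (19.7% of all genes). Oas3 gave 11.72 and 11.92 in Tpl2-deficient and 11.26 and 11.36 in wild-type macrophages, a difference of 0.51 ± 0.16 (adjusted p = 0.0677, limma), with both Tpl2-deficient arrays above. Mx2 gave 11.53 and 11.81 in Tpl2-deficient and 12.08 and 12.18 in wild-type macrophages, a difference of -0.46 ± 0.15 (adjusted p = 0.0723, limma), with both Tpl2-deficient arrays below. Single arrays changed which further genes passed. Without Tpl2-deficient LPS replicate 1 Adar was higher (0.49, adjusted p = 0.0353, limma), and without Tpl2-deficient LPS replicate 2 Stat2 was lower (-0.49, adjusted p = 0.0285, limma).

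Probe sets of a gene did not always give the same answer with LPS. When each of the 68 probe sets was tested on its own, an alternative chosen after seeing the data, 1 of the 28 not used above was higher in Tpl2-deficient cells (6.20% of all probe sets were) and 3 were lower (5.67% of all probe sets were). A second Herc6 probe set gave 11.08 and 11.23 in Tpl2-deficient and 12.05 and 12.16 in wild-type cells with LPS (-0.95, adjusted p = 0.000637, limma), whereas the one used differed by 0.18. A second Cmpk2 probe set gave 11.46 and 12.01 in Tpl2-deficient and 12.58 and 12.54 in wild-type cells (-0.83, adjusted p = 0.0378, limma), whereas the one used differed by -0.10. Both Tpl2-deficient arrays were the lower ones in each case. A further Slfn5 probe set was lower by the same measure (-0.55, adjusted p = 0.0252, limma) and a further Xaf1 probe set was higher (0.76, adjusted p = 0.00771, limma). The used probe sets differed by 0.11 for Slfn5 and by 0.07 for Xaf1. For these 4 genes the comparison with LPS depended on the probe set used.

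**Figure D4:**
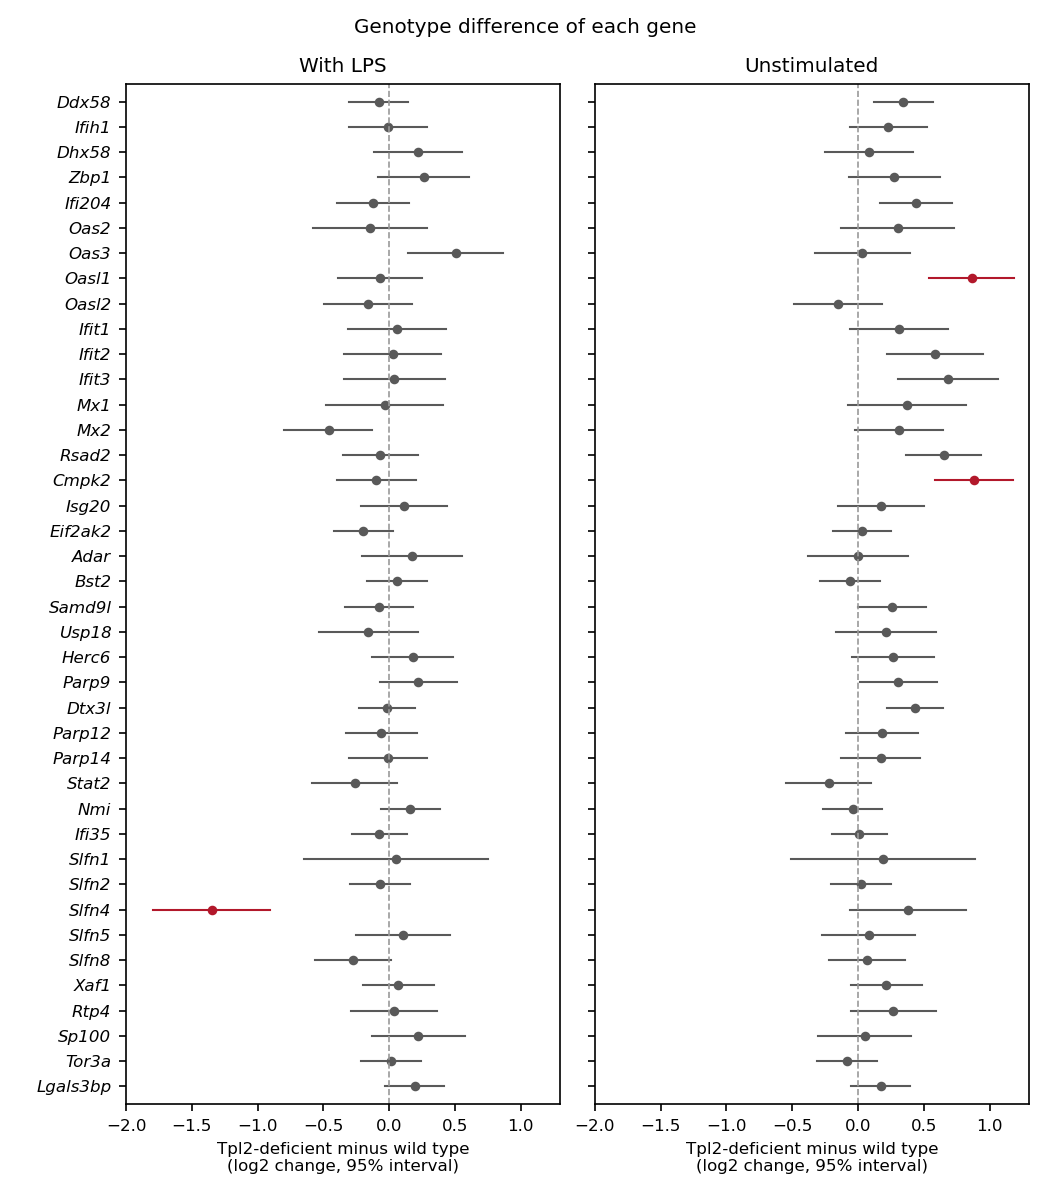
Tpl2-deficient minus wild type (log2) for each of the 40 genes with LPS and without, as points with 95% intervals, with 0 marked. Slfn4 with LPS (-1.35) and Cmpk2 (0.88) and Oasl1 (0.86) without LPS passed the test.

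The last comparison was the difference of the LPS responses, tested as an interaction of genotype and treatment. The measured response was smaller in Tpl2-deficient cells for Slfn4, Cmpk2, Oasl1 and Rsad2, 4 of the 40, beside 2.87% of all genes. It was larger for 0, beside 5.72% of all genes (limma with Benjamini-Hochberg adjustment). The difference of responses was -1.73 ± 0.28 for Slfn4 (adjusted p = 0.00337, limma) and -0.98 ± 0.19 for Cmpk2 (adjusted p = 0.00966, limma). It was -0.93 ± 0.21 for Oasl1 (adjusted p = 0.0177, limma) and -0.72 ± 0.18 for Rsad2 (adjusted p = 0.0337, limma). The median over the 40 was -0.20, beside 0.01 for all genes. Of the 40, 31 were below 0 and 9 above, beside 51.3% of all genes above 0. The differences under each treatment are given side by side. For Slfn4 the genotypes differed by -1.35 with LPS and by 0.38 without it. For Cmpk2 the differences were -0.10 with LPS and 0.88 without by the probe set used, and -0.83 with LPS (adjusted p = 0.0378, limma) and 0.24 without by the second probe set, so where its genotypes differed depended on the probe set. They were -0.07 with LPS and 0.86 without for Oasl1, and -0.07 with LPS and 0.65 without for Rsad2. Since the Rsad2 levels with LPS are at the top of the measured range, its difference of responses has no bound and does not show a smaller response. These pairs of differences and the interaction are made from the same 8 arrays and are not separate evidence. Mx2 (-0.77 ± 0.21, adjusted p = 0.0504, limma) lay just outside the threshold.

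Slfn4 and Cmpk2 kept a smaller response under all 18 alternatives tried, with adjusted p between 0.000446 and 0.024 for Slfn4 and between 0.00264 and 0.0464 for Cmpk2 (limma). Oasl1 passed under 15 of the 18 and was lost without wild-type unstimulated replicate 2 (-0.71, adjusted p = 0.0667, limma), without Tpl2-deficient unstimulated replicate 1 (-0.86, adjusted p = 0.0743, limma) or without wild-type LPS replicate 2 (-0.87, adjusted p = 0.0808, limma). Since Slfn4 and Oasl1 each have 1 probe set that names them alone, the alternatives that change it could not alter their values. Rsad2 passed under 10 of the 18. It was lost without any 1 of the 4 wild-type arrays or of replicate 1 in either Tpl2-deficient group, with values between -0.80 and -0.54 and adjusted p between 0.0601 and 0.14 (limma). Tested on their own, the other 2 probe sets of Rsad2 gave -0.56 (adjusted p = 0.207, limma) and -0.79 (adjusted p = 0.086, limma), and the second probe set of Cmpk2 gave -1.07 (adjusted p = 0.0807, limma). Of the 28 probe sets not used above, 1 passed as a smaller response, a further Slfn5 probe set (-0.76, adjusted p = 0.0438, limma), where 2.52% of all probe sets did.

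**Figure D5:**
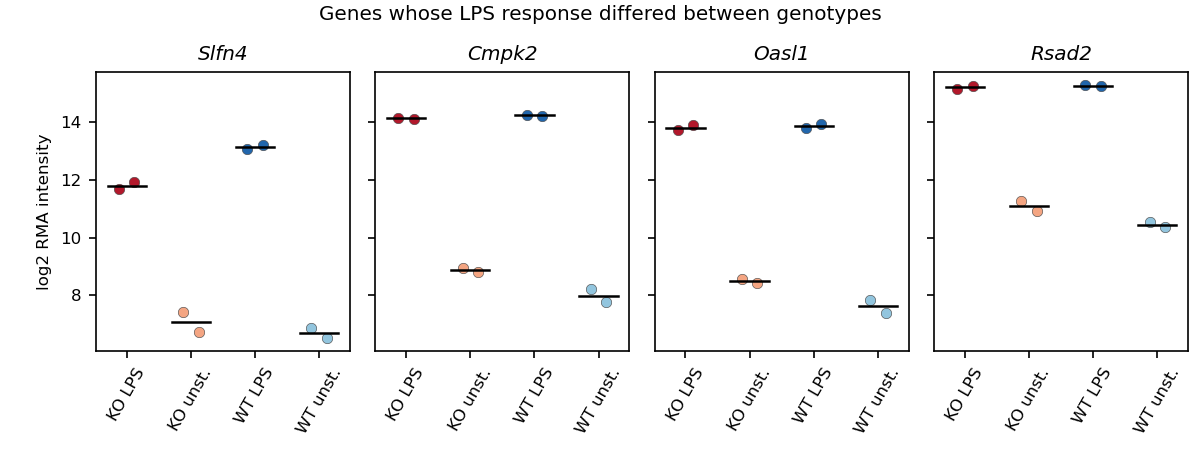
Level on each array (log2 intensity) of the 4 genes that passed the test of a differing LPS response. Tpl2-deficient (KO) groups stand left of wild-type (WT) groups, with lines at the group means. Slfn4 is lower in Tpl2-deficient cells with LPS, whereas the probe sets shown for Cmpk2 and Oasl1 are higher in Tpl2-deficient cells without it, and Rsad2 with LPS lies at the top of the measured range.

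Genes of the pathway that leads to and from interferon were read from a list of 23, of which 19 are described here. In Tpl2-deficient cells LPS raised 12 of the 19, beside 16.0% of all genes, and lowered 4, beside 4693 of all 18193 genes. In wild-type cells it raised 14, beside 21.3% of all genes, and lowered 3, beside 5627 of all 18193 genes. Before LPS 0 of the 19 differed between the genotypes after adjustment, beside 0.154% of all genes higher and 0.346% lower. Irf7, the factor that amplifies interferon production, differed by 0.66 ± 0.17 (adjusted p = 0.15, limma with Benjamini-Hochberg adjustment). With LPS Tpl2-deficient cells had 3 of the 19 higher (8.01% of all genes) and 4 lower (5.73% of all genes) than wild-type cells. Ifnb1 gave 10.33 and 9.84 in Tpl2-deficient and 7.48 and 7.54 in wild-type macrophages with LPS (2.57 ± 0.16, adjusted p = 1.29e-06, limma), with no overlap of the arrays. Ifnar1, a receptor chain for interferon beta, averaged 9.29 ± 0.41 in Tpl2-deficient and 11.51 ± 0.10 in wild-type macrophages with LPS (SD, n = 2 each), a difference of -2.22 ± 0.16 (adjusted p = 5.42e-06, limma), and it was lower in Tpl2-deficient cells. The other receptor chain, Ifnar2, differed by -0.22 ± 0.10 (adjusted p = 0.223, limma). Il10, an anti-inflammatory cytokine that damps macrophage responses, gave 8.88 and 8.80 in Tpl2-deficient and 11.53 and 11.62 in wild-type macrophages with LPS (-2.73 ± 0.10, adjusted p = 5.28e-08, limma), again lower in Tpl2-deficient cells.

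The rest of the pathway differed less. Tlr4 was lower with LPS in Tpl2-deficient cells (-1.42 ± 0.12, adjusted p = 1.19e-05, limma), as was Ptpn6, a phosphatase that restrains cytokine signalling (-0.59 ± 0.11, adjusted p = 0.00329, limma). Irf1, an interferon regulatory factor, was higher (0.73 ± 0.11, adjusted p = 0.000874, limma), as was Tyk2 (0.50 ± 0.14, adjusted p = 0.0394, limma). Irf9, which gives the ISRE-binding complex its DNA contact, differed by 0.06 ± 0.10 and Socs1, a feedback inhibitor of Jak1, by -0.15 ± 0.10, and neither passed. Beside the 5.95-fold higher Ifnb1 signal, the median difference of the 40 antiviral genes in the same arrays was -0.01.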

How the data were processed

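RNA of 8 samples was hybridised to Affymetrix mouse arrays, 2 for each genotype and treatment, per the labels. The deposited values are log2 intensities per probe set, made by the authors with GCOS and RMA, per the submitters' processing notes, with no versions. The chip definition file and genome build are not given in the sources used here. The values were used as deposited, with no further normalization and no filter on low values. The number of arrays limits the precision. All 45101 probe sets were read, and 34945 with exactly 1 symbol, controls aside, gave 18193 genes.

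The test was that of limma 3.58.1 (R 4.3.3), two-sided, from lmFit and eBayes over the 8 arrays together, with a mean per group and no replicate term, 4 residual and 6.87 prior degrees of freedom, and Benjamini-Hochberg adjustment over all genes. A gene passed at an adjusted p under 0.05. Changes from a level under the array median, or to a level at the array maximum, were read as lower bounds, a choice made after the values were seen. Values in every array are given for up to 3 members of each role group with the largest change in each comparison and for each member past the threshold between genotypes, and other genes come from the pathway list and the cell markers. The members, the lists, the motifs and the alternatives were chosen with earlier results of these data known. Alternatives were another probe set rule, repeated quantile normalization, centring on medians or spike-ins, a filter on low genes, a mean-variance trend, array weights, fewer arrays and replicate blocks. The correlation of replicate 1 minus replicate 2 between groups was -0.12 to 0.10 over all genes. Over the 40 members it was 0.52 between the unstimulated groups of the 2 genotypes, 0.49 between their LPS groups and -0.25 to -0.01 otherwise. No label ties a number to a mouse or a day, and what same-numbered samples share was not tested.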

Additional observations from a re-analysis of the deposited data

Results flagged for a closer look

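The measured LPS response of 4 antiviral genes differed between the genotypes by a test of the difference itself, the interaction of genotype and treatment (limma with Benjamini-Hochberg adjustment over all genes). The response in Tpl2-deficient cells minus that in wild-type cells was -1.73 on the log2 scale for Slfn4, with rises of 4.72 in Tpl2-deficient and 6.45 in wild-type cells. It was -0.98 for Cmpk2, with rises of 5.27 in Tpl2-deficient and 6.25 in wild-type cells. It was -0.93 for Oasl1, with rises of 5.32 in Tpl2-deficient and 6.25 in wild-type cells. For Rsad2 it was -0.72, with rises of at least 4.10 in Tpl2-deficient and at least 4.82 in wild-type cells, because its levels with LPS lie at the top of the measured range, and this value does not show a smaller response. No sample was tested as far from its group, since groups of 2 are too small for that.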

How the results depend on the processing

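With 2 arrays per group, 39 of 40 genes with LPS and 38 of 40 without it gave no call between the genotypes, and this does not show that they were equal. All 40 genes kept a called LPS rise in both genotypes under every alternative tried. Of 3120 values of single genes under alternatives, 3065 stayed on their side of the threshold, 20 lost and 35 gained a call, and 0 turned round in a called direction.

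Before LPS, 2 genes were higher in Tpl2-deficient cells. This became 1 with the mean of all probe sets, 4 with repeated quantile normalization, 4 with a mean-variance trend and 5 with array weights. It became 3 with centring on spike-ins, 3 with only genes above the median level and 0 with only the 4 arrays compared. It also changed with some single arrays left out. With LPS, 0 were higher, which became 1 with the mean-variance trend, with a filter that kept genes above the median level, with only the arrays compared and with the crossed replicate block, and 0 to 1 with 1 array left out. The 1 lower gene, Slfn4, became 2 with that filter and with the crossed replicate block, and 1 to 2 with 1 array left out. The 4 smaller measured responses, Rsad2 among them, became 8 with that filter, 8 with the trend and 6 with repeated quantile normalization. They became 5 without probe sets whose names end in _x_at or _s_at and 3 with array weights, and changed with some single arrays left out. The filter tests fewer genes, and otherwise the cause was not tested.

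The replicate block gave 2 genes higher before LPS, 0 higher and 1 lower with LPS and 4 smaller measured responses. It changed none of these counts. The crossed replicate block gave 2 genes higher before LPS, 1 higher and 2 lower with LPS and 5 smaller measured responses. It was chosen after seeing the data. Its reason was a correlation of -0.12 over all genes between replicate 1 minus replicate 2 with LPS and without in Tpl2-deficient cells. No label ties a sample's number to a mouse or a day. Where an array left out leaves 1 in its group, that sample is assumed to vary like the other groups.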

Other observations

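Several of the genes lie side by side. Of 41 member symbols in RefSeq's protein-coding gene table (GRCm38.p6), 15 have another member as the next gene, and the 41 lie on 14 chromosomes. Rsad2 and Cmpk2 are neighbours on chromosome 12, and their differences of response (Tpl2-deficient minus wild type, log2) were -0.72 for Rsad2, from levels at the top of the measured range with LPS, and -0.98 for Cmpk2. On chromosome 11 Slfn8, Slfn2, Slfn1 and Slfn4 follow each other, and their LPS rises in Tpl2-deficient cells were 3.47, 1.54, at least 5.78 and 4.72, against 3.81, 1.63, at least 5.92 and 6.45 in wild-type cells. Slfn4 was the one of these 4 whose response passed the interaction test, while the differences of response were -0.34 for Slfn8 and -0.09 for Slfn2, and none is given for Slfn1, whose rises are lower bounds. On chromosome 5 Oasl2 and Oasl1 are neighbours, and their differences of response were -0.00 for Oasl2 and -0.93 for Oasl1. Parp14, Dtx3l and Parp9 adjoin on chromosome 16, with differences of response of -0.18, -0.45 and -0.08.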
